A study of Homo sapiens with 18 samples.

Results

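The genes described here are 40 genes of glycolysis and of the response to low oxygen, taken as a named list from the 17017 gene symbols of the study's count table. All 40 were present. The list holds 4 transporters of glucose and lactate, 17 glycolytic enzymes, 4 regulators of glycolytic flux, 3 genes of oxygen sensing and 12 other hypoxia-induced genes. The study silenced fibrillarin (FBL), the nucleolar enzyme that adds 2'-O-methyl groups to ribosomal RNA, in MDA-MB-231, an established human line of triple-negative breast carcinoma, and measured RNA and ribosome footprints. Control cells (SC, read here as the Scramble control) and cells with either of 2 hairpins against FBL (SH2 and SH3) were all transduced with lentiviral pLKO.1 vectors. All were selected in puromycin, kept in insulin-supplemented DMEM with serum, and given cycloheximide just before lysis. The labels describe no low-oxygen treatment, leave unsaid whether KD1 is SH2 or SH3, and name no clone. Each treatment had 3 libraries of cytoplasmic RNA (IN) and 3 of ribosome-protected fragments (RPF). Nothing in the labels says that replicates came from separate cultures, so p-values measure only the spread between libraries labelled as replicates.

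Glycolysis converts glucose to pyruvate in the cytosol. Glucose enters through SLC2A transporters, lactate dehydrogenase turns pyruvate into lactate, and SLC16A transporters carry lactate across the membrane. Pyruvate dehydrogenase kinases (PDKs) restrain the entry of pyruvate into the mitochondrial cycle, and the PFKFB enzymes set the level of fructose-2,6-bisphosphate, an activator of phosphofructokinase. When oxygen is low, prolyl hydroxylases (EGLN genes) no longer mark the HIF-alpha subunits for destruction. HIF, a dimer with ARNT, then binds DNA at hypoxia response elements and raises the transcription of many genes of this list. Triple-negative breast cancer cells, MDA-MB-231 among them, are known for a high rate of glycolysis in the presence of oxygen.

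The list was named for glycolysis and the response to low oxygen. A share of the hypoxia response element above that of all genes is thus partly built into it. The core of that element is ACGTG. It was counted on either strand in the 250 bases before each RefSeq start site (GRCh38.p14), and a palindromic CACGTG counts as 2 overlapping matches. Promoter windows were matched for 35 of the 40 members, and SLC2A3, SLC16A1, BNIP3L, NDRG1 and HILPDA had no entry. The core was in a window of 22 of the 35 members (62.9%), against 21.7% of all 27305 genes of the promoter table. Per window the shares were 39.7% of 63 member windows and 18.5% of 35116 windows in all. The 6 stretches below are the promoters of members whose RNA is described in detail further on, and all hold the core. Other such members, among them SLC2A1 and KDM3A, had none in their windows. ACGTG, or its reverse complement CACGT, is in capitals, and all 6 genes lie on the plus strand. The CA9 stretch is chr9:35673828-35673927, ANKRD37 chr4:185396641-185396740, PDK1 chr2:172555990-172556089, LDHA chr11:18394363-18394502, PGK1 chrX:78104008-78104107 and DDIT4 chr10:72273774-72273823.
CA9: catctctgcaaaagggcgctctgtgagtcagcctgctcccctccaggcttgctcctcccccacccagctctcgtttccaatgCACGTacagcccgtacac
ANKRD37: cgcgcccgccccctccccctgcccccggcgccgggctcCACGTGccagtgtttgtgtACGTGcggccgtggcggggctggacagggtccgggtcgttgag
PDK1: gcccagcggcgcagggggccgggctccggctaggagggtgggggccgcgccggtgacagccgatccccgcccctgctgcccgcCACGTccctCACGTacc
LDHA: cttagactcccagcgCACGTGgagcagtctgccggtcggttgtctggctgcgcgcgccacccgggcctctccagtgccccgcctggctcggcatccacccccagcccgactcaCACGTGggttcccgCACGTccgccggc
PGK1: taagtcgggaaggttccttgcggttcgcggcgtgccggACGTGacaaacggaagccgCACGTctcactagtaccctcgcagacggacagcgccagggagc
DDIT4: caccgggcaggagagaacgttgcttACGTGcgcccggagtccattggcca
The stretches differ in how many cores they hold: 1 in CA9 and DDIT4, 2 in PDK1 and PGK1, 3 in ANKRD37 and 5 in LDHA. A match describes letters in a window, and binding of HIF was not measured. The variant GCGTG was in a window of 51.4% of the 35 members and of 36.2% of all genes, but per window its shares were close, 33.3% of member windows and 32.2% of all.

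FBL RNA in the hairpin libraries was 1.46% of its SC level in SH2, 0.743% without SH2 replicate 3, and 0.898% in SH3, from CPM (read counts scaled to library size) with TMM factors within each library kind. IN libraries held 23469830 to 27629488 counts, and RPF libraries 1662705 to 6098648. Markers of mesenchymal breast cancer cells (VIM, CD44, AXL, CAV1, MSN and LGALS1) were present in all IN libraries, from 65.1 CPM upward. Of 6 luminal or epithelial markers, ESR1, PGR and CDH1 stayed at or below 0.449 CPM, while GATA3 (7.62 to 13.2 CPM), EPCAM (4.92 to 9.15 CPM) and TFF1 (0.881 to 5.08 CPM) were low but not 0. These are bulk libraries, so fewer cells of a kind and less RNA per cell cannot be told apart.

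In RNA, 10 members fell under both hairpins: the enzymes TPI1, PGAM1, ENO1, ENO2, LDHA and LDHB, the kinases PDK1 and PDK3, and the hypoxia-induced genes CA9 and ANKRD37. PFKM and KDM3A rose under both. Differences were tested with edgeR's quasi-likelihood test, and a call is a Benjamini-Hochberg adjusted p under 0.05 over all genes tested. All 40 members passed the filter on low counts in RNA, CA9 only through its SC libraries, so a fall of CA9 was a condition of its being tested and its call is no support. Without CA9, 9 of 39 members were lower under both hairpins, 12 in SH2 and 19 in SH3. Of all genes tested, 18.2% were called lower and 19.6% higher under both hairpins, against 25% and 5% of the members, and the 2 comparisons share their SC libraries. In SH2, 11 members were higher and 13 lower than in SC, where 31.1% and 30.4% of the 12710 genes tested were called. Both shares, 27.5% and 32.5% of the members, lay near that background. In SH3, 2 members were higher and 20 lower, that is 5% and 50% of the members, where 27.8% and 25.2% of all genes were called. The members' median log2 change was 0.08 in SH2 and -0.26 in SH3, against 0.012 and 0.034 for all genes tested.

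Because of the shared SC libraries, the direct comparison of SH2 with SH3 is given beside them. In it, 19 members were higher in SH2 and 4 lower (18.9% and 20.4% of all genes), with a median log2 difference of 0.33 against 0.0047 for all genes. The 8 members that were called higher in SH2 and not called in SH3 were SLC2A1, SLC2A3, HK2, PKM, PFKFB3, HIF1A, NDRG1 and P4HA2, and 6 of them, all but HK2 and HIF1A, also differed between the hairpins. For PKM that difference, 0.36, was lost without SH2 replicate 3 or SH3 replicate 1 (edgeR adjusted p 0.0731 and 0.0748). The 9 members called lower in SH3 and not called in SH2 were SLC16A3, PFKL, ALDOC, GAPDH, PGK1, BNIP3, BNIP3L, ADM and P4HA1, and 8 of them, all but P4HA1, were lower in SH3 than in SH2. GPI, PFKFB4 and HILPDA were called lower in SH2 and not called in SH3, and of these PFKFB4 also differed between the hairpins. GPI does not separate the hairpins, which differed by -0.03 (edgeR adjusted p 0.827). Its SH3 change was -0.21 (edgeR adjusted p 0.0608), with all SH3 libraries below SC. That change was called in some alternatives, among them DESeq2's Wald test (adjusted p 0.0155) and the edgeR fit of only the groups compared (adjusted p 0.0265). Another 7 members passed the test against SC in neither hairpin: SLC16A1, HK1, PFKP, ALDOA, EGLN1, EGLN3 and ANGPTL4. DDIT4 moved in opposite directions.

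**Figure D1:**
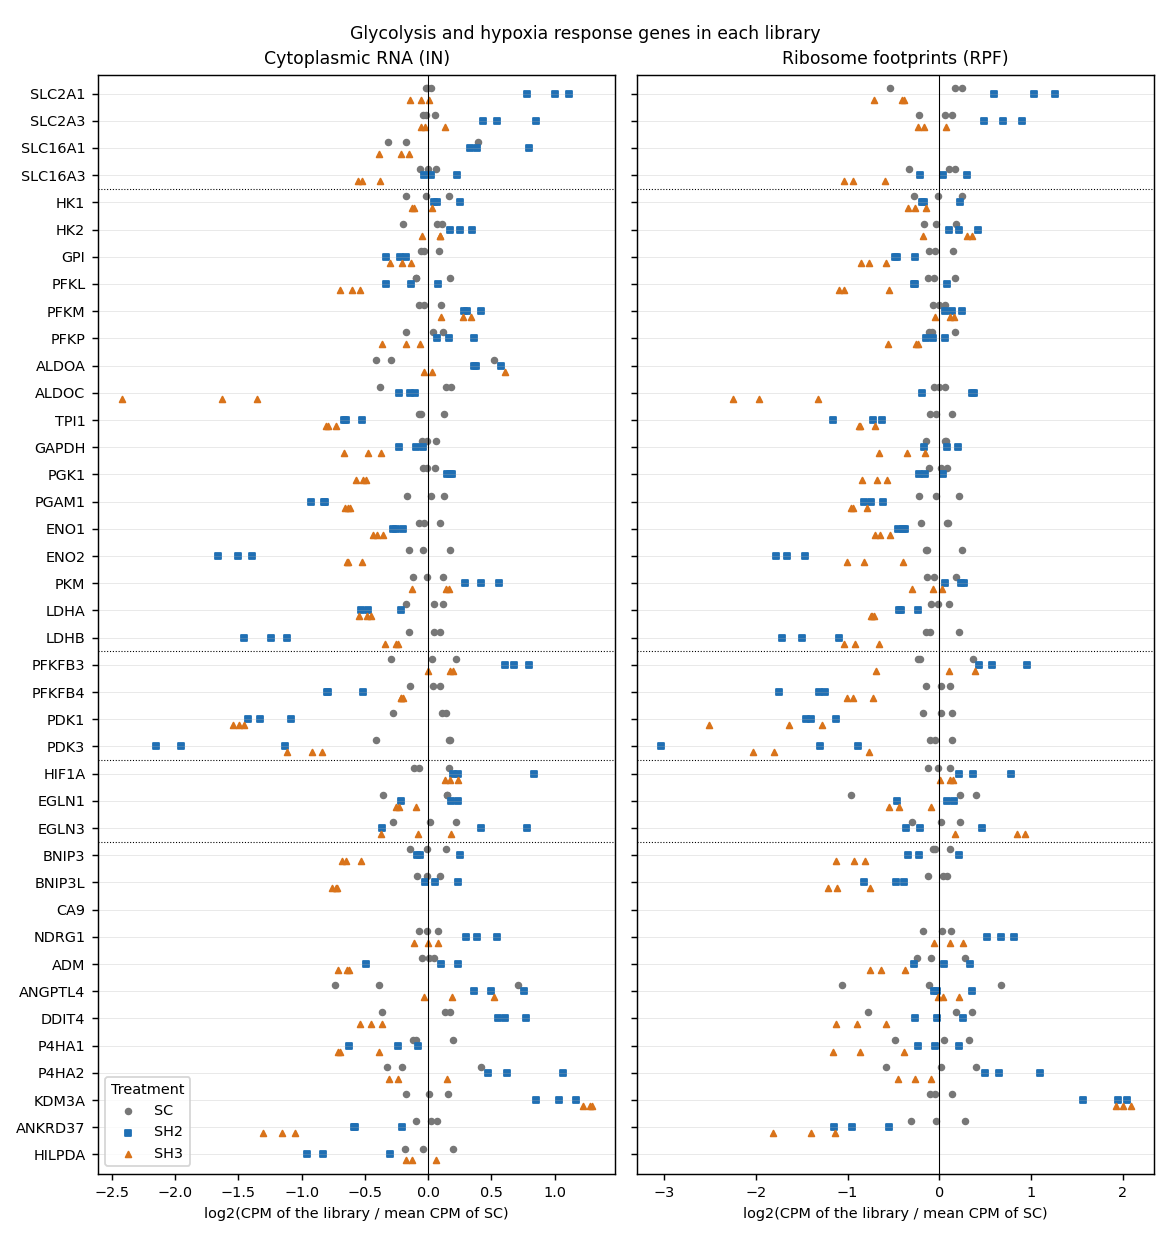
Level of each member in each library, as log2 of its CPM over the mean CPM of the 3 SC libraries, for RNA (left) and footprints (right). Grey circles are SC, blue squares SH2 and orange triangles SH3, and dotted lines separate the roles. CA9 is left out because it had 0 counts in 2 SH3 RNA libraries, and ALDOA, SLC16A1 and HILPDA are not drawn for footprints. The orange points lie left of 0 for most enzymes, while the blue points lie to the right for SLC2A1, SLC2A3 and PFKFB3.

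Of the 36 members with enough footprints for the test, 12 were lower under both hairpins and 1, KDM3A, was higher under both, that is 33.3% and 2.78% of them, where 12.0% and 10.8% of all genes were called so. The 12 lower under both were GPI, TPI1, PGAM1, ENO1, ENO2, LDHA, LDHB, PFKFB4, PDK1, PDK3, BNIP3L and ANKRD37. In some alternatives GPI, ENO1, LDHA, BNIP3L and ANKRD37 lost their SH2 call and PDK3 its SH3 call (edgeR adjusted p 0.0533 to 0.118). The 4 members left out by the filter were SLC16A1, ALDOA, CA9 and HILPDA. In SH2, 7 were higher and 12 lower (21.0% and 23.2% of the 10345 genes tested), and in SH3, 1 was higher and 20 lower (16.9% and 19.0%). The median log2 change in footprints was -0.03 in SH2 and -0.66 in SH3, and that of all genes -0.0042 and -0.014. Between the hairpins, 15 were higher in SH2 and 2 lower (12.1% and 11.6%), with a median difference of 0.37. In SH2, 18 members were called in the same direction in RNA and footprints, 4 in RNA alone (HK2, PFKM, PKM and DDIT4) and 1 in footprints alone (BNIP3L). In SH3, 19 were called in the same direction in both, 2 were called in RNA alone (PFKM and GAPDH) and 2 in footprints alone (GPI and PFKFB4). No member was called in opposite directions by the 2 measures. The same counts over all genes were not computed, so this match of the measures cannot be called a trait of the list.

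Among the transporters SLC2A1 and SLC2A3 rose in SH2, SLC16A3 fell in SH3 and SLC16A1 passed no test against SC. SLC2A1 encodes the widespread glucose transporter GLUT1. Its RNA stood at 259.8, 259 and 266 CPM in SC, 566, 450.1 and 525 CPM in SH2 and 252, 263 and 236 CPM in SH3. All SH2 libraries lay above all others, and SH3 overlapped SC. The rise in SH2 was 0.97 on the log2 scale (SE 0.10, edgeR adjusted p 1.85e-06), and SH3 differed from SC by -0.06 (SE 0.10, adjusted p 0.615). SH2 exceeded SH3 by 1.03 (SE 0.10, edgeR adjusted p 4.01e-06). SLC2A1 footprints were 419.8, 682 and 722 CPM in SC, 920.2, 1460.4 and 1244 CPM in SH2 and 371, 460.2 and 467 CPM in SH3, so here too the SH2 libraries were the highest, by 0.99 over SC (SE 0.20, edgeR adjusted p 0.000859).

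SLC2A3, the high-affinity glucose transporter GLUT3, followed SLC2A1 at a smaller size. Its RNA was 34.3, 33.6 and 36 CPM in SC, 46.7, 62.6 and 50.5 CPM in SH2 and 34.1, 37.9 and 33.3 CPM in SH3, a rise of 0.62 in SH2 (SE 0.12, edgeR adjusted p 0.000346) with no overlap with SC. SLC16A3 (MCT4) exports lactate from glycolytic cells. Its RNA was 509.8, 487 and 534 CPM in SC, 499.7, 519 and 599 CPM in SH2 and 347, 392 and 355 CPM in SH3. Here SH3 was the group that stood apart, below all other libraries (log2 change -0.49, SE 0.10, edgeR adjusted p 0.000867), and its footprints fell by 0.84 (SE 0.17, adjusted p 0.00136). SLC16A1 (MCT1), which carries lactate in either direction, had 17 to 43 RNA counts a library, and its SH2 change was 0.52 (SE 0.27, edgeR adjusted p 0.116), and it was called in the fit without SC replicate 1 (adjusted p 0.0485). All 4 transporters were higher in SH2 than in SH3 in RNA. For SLC16A1 that call was the weakest (0.76, SE 0.28, edgeR adjusted p 0.0449), and it ended in 8 of the alternative fits, among them DESeq2's Wald test and the fit without any 1 of the SH2 or SH3 libraries.

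Among the 17 glycolytic enzymes, 3 rose and 7 fell in SH2 RNA (17.6% and 41.2%), where 31.1% and 30.4% of all genes were called. In SH3, 1 rose and 10 fell (5.88% and 58.8%), where 27.8% and 25.2% of all genes were called. The median log2 change of the enzymes was -0.12 in SH2 and -0.40 in SH3. In footprints none of the 16 enzymes tested was called higher, beside 21.0% of all genes in SH2 and 16.9% in SH3. Lower were 7 in SH2 and 10 in SH3 (43.8% and 62.5%, beside 23.2% and 19.0% of all genes). ENO2, neuron-specific enolase, had 59.3, 47.6 and 51.5 CPM of RNA in SC, 20.1, 16.7 and 18.6 CPM in SH2 and 36.8, 33.8 and 33.9 CPM in SH3. The 3 groups did not overlap, and the order was SC, SH3, SH2. ENO2 fell by 1.52 for SH2 (SE 0.11, edgeR adjusted p 1.54e-07) and by 0.60 for SH3 (SE 0.11, adjusted p 0.000451), and its footprints fell by 1.61 and 0.70. ENO1, the enolase of most tissues, fell by 0.24 and 0.40 in RNA, and its SH2 call was lost in 3 of the alternatives: plain library totals, without SC replicate 3 and without SH2 replicate 1 (edgeR adjusted p 0.146, 0.118 and 0.0816).

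LDHB, the lactate dehydrogenase subunit of heart-type tetramers, followed the same order as ENO2. Its RNA was 186, 213 and 219.6 CPM in SC, 75.4, 95.0 and 87.4 CPM in SH2 and 163, 174 and 173 CPM in SH3. The fall was 1.26 in SH2 (SE 0.10, edgeR adjusted p 3.52e-07), and the SH3 change of -0.28 (SE 0.10, adjusted p 0.0346) lost its call without SC replicate 2 or 3, without SH3 replicate 1 and with plain library totals (edgeR adjusted p 0.0616 to 0.146). LDHB footprints fell under both hairpins, by 1.42 and 0.86. LDHA, the muscle-type subunit, whose promoter above holds 5 cores, fell by 0.40 for SH2 (SE 0.11, edgeR adjusted p 0.00551) and 0.49 for SH3 (SE 0.11, adjusted p 0.00174).

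ALDOC, a brain-enriched aldolase, was the enzyme that changed most in SH3. Its RNA was 4.65, 6.88 and 6.69 CPM in SC, 5.18, 5.64 and 5.51 CPM in SH2 and 1.96, 1.13 and 2.38 CPM in SH3. SH2 overlapped SC, and SH3 lay below both (log2 change -1.73, SE 0.24, edgeR adjusted p 5.3e-05). These rest on 27 to 170 counts a library. Footprints of ALDOC fell by 1.77 in SH3 (SE 0.31, edgeR adjusted p 0.000483), from 5 to 13 counts in the SH3 libraries. ALDOA, the aldolase of muscle and most other tissues, had 10 to 23 RNA counts in each library and overlapped SC under both hairpins, at 0.44 for SH2 (SE 0.34, edgeR adjusted p 0.278) and 0.22 for SH3 (SE 0.35, adjusted p 0.621). ALDOA RNA averaged 0.549 CPM in SC, beside 3909 CPM for GAPDH and 3067 CPM for ENO1. The cause of this low count was not tested, and the lack of a call says little about ALDOA. How the authors treated reads that match several places is not given in the sources used here. GAPDH, PGK1, ENO1, LDHA and ALDOA have processed pseudogenes, so their counts are uncertain where such reads were divided.

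PGAM1, a phosphoglycerate mutase, had 349, 398 and 427 CPM of RNA in SC, 206, 223 and 221 CPM in SH2 and 255, 248 and 252 CPM in SH3. Both hairpins lay below SC, by 0.85 (SE 0.09, edgeR adjusted p 3.79e-06) and 0.64 (SE 0.09, adjusted p 7.83e-05). TPI1, triosephosphate isomerase, fell by 0.61 and 0.77 in RNA and by 0.82 and 0.81 in footprints. PGK1, phosphoglycerate kinase, had 443, 453 and 474 CPM in SC, 520.1, 516 and 507 CPM in SH2 and 307, 325 and 319 CPM in SH3. In SH2 all 3 PGK1 values lay above SC without passing the test (0.17, SE 0.08, edgeR adjusted p 0.0842, or 0.0147 with plain library totals), and in SH3 all lay below (-0.53, SE 0.08, adjusted p 0.000126). GAPDH, which oxidises glyceraldehyde-3-phosphate, and PFKL, the liver-type phosphofructokinase, fell in SH3 by 0.50 and 0.61 in RNA. In footprints PFKL fell there by 0.87, and GAPDH was at -0.38 without a call (SE 0.15, edgeR adjusted p 0.053), though called without SC replicate 2 or SH3 replicate 3 and with no filter (adjusted p 0.0278 to 0.0342). PFKM, the muscle-type phosphofructokinase, rose by 0.34 in SH2 and 0.24 in SH3, the latter call lost in 9 of the alternatives with edgeR adjusted p-values up to 0.275. HK1, the hexokinase of most tissues, and PFKP, the platelet-type phosphofructokinase, passed no test against SC in either measure. They had RNA changes of 0.13 and 0.20 for SH2, then -0.07 and -0.20 for SH3, and PFKP was called in SH3 RNA without SC replicate 1, in SH3 footprints without SC replicate 2 and in SH2 RNA with plain library totals (edgeR adjusted p 0.0424 to 0.0494). PKM, pyruvate kinase, rose in SH2 RNA by 0.43 (SE 0.11, edgeR adjusted p 0.00445) with no call in footprints (0.19, SE 0.13, adjusted p 0.251). Its M1 and M2 splice forms are not separated in the table. HK2, the inducible hexokinase, rose in SH2 RNA by 0.26 (SE 0.10, edgeR adjusted p 0.0364), and GPI, which isomerises glucose-6-phosphate, fell there by 0.24 (SE 0.09, adjusted p 0.0312). The HK2 call was lost without SC replicate 1 or 3 or SH2 replicate 2 or 3 and in the fit of only the groups compared (edgeR adjusted p 0.0544 to 0.196). The GPI call was lost without SC replicate 3 or SH2 replicate 1, with plain library totals and with no filter (edgeR adjusted p 0.0518 to 0.163).

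Of the 4 regulators of flux, 1 rose and 3 fell in SH2 RNA, and 2 fell in SH3. Among all genes 31.1% rose and 30.4% fell in SH2, and 27.8% and 25.2% in SH3. PDK1, a kinase that switches off pyruvate dehydrogenase and whose promoter above holds 2 cores, had 17.5, 23.4 and 22.9 CPM of RNA in SC, 7.92, 10.0 and 8.43 CPM in SH2 and 7.72, 7.30 and 7.55 CPM in SH3. Both hairpins lay well below SC, with falls of 1.27 (SE 0.14, edgeR adjusted p 4.57e-06) and 1.5 (SE 0.14, adjusted p 2.78e-06). PDK1 footprints were 22.6, 25.7 and 28 CPM in SC, 9.63, 9.32 and 11.7 CPM in SH2 and 8.20, 4.45 and 10.5 CPM in SH3, and fell by 1.32 and 1.73. The size of the fall did not pass the test of a difference between the hairpins (0.22 in RNA, SE 0.15, edgeR adjusted p 0.245).

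PDK3, a related kinase, had 4.45, 6.68 and 6.65 CPM of RNA in SC, 1.33, 2.71 and 1.53 CPM in SH2 and 3.32, 2.73 and 3.14 CPM in SH3. It fell by 1.67 for SH2 (SE 0.26, edgeR adjusted p 7.48e-05) and by 0.95 for SH3 (SE 0.25, adjusted p 0.00502), with neither hairpin overlapping SC. PFKFB3 makes fructose-2,6-bisphosphate. Its RNA was 33.3, 47.6 and 41.7 CPM in SC, 62.4, 65.5 and 71.0 CPM in SH2 and 40.9, 46.0 and 46.8 CPM in SH3, a rise of 0.70 for SH2 (SE 0.12, edgeR adjusted p 0.000237). The SH3 difference was 0.12 (SE 0.12, edgeR adjusted p 0.417). Its footprint rise in SH2, 0.65 (SE 0.24, edgeR adjusted p 0.0361), lost its call without SC replicate 2 or 3 or SH2 replicate 1 or 3 (edgeR adjusted p 0.0535 to 0.155). PFKFB4, a paralog of PFKFB3, went the other way. PFKFB4 RNA was 22.2, 25.2 and 26.1 CPM in SC, 14.1, 17.1 and 14.2 CPM in SH2 and 21.3, 21.1 and 21.1 CPM in SH3, a fall of 0.70 in SH2 (SE 0.12, edgeR adjusted p 0.000148). The SH3 libraries lay below SC by 0.21 without passing the test (SE 0.11, edgeR adjusted p 0.134).

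Changes between paralogs can be read as ratios within a library, where the scaling of the library cancels. Of 13 pairs, the RNA ratio overlapped SC for 7 in SH2 and for 5 in SH3. The share over other pairs of genes was not computed, so these counts cannot show that paralogs moved apart more than other genes. The 5 pairs described here were chosen after their values were seen. ENO1 over ENO2 in RNA was higher in all SH2 than in all SC libraries, by 1.27 on the log2 scale, and overlapped SC in SH3. LDHA over LDHB rose by 0.86 in SH2, and lay 0.21 below SC in SH3, again without overlap. In footprints it shifted by 1.07 in SH2, while in SH3 it was 0.13 above the SC mean, opposite in sign to the RNA, and overlapped SC. PFKFB3 over PFKFB4 shifted by 1.41 in SH2 RNA and by 2.11 in SH2 footprints. In SH3 the RNA shift was 0.35, above all SC libraries, and the footprints overlapped SC. P4HA1 over P4HA2, 2 subunits of collagen prolyl hydroxylase, shifted by -1.07 in SH2 and -0.50 in SH3 in RNA, and by -0.79 and -0.55 in footprints, below SC in each case. BNIP3 over BNIP3L overlapped SC in both hairpins and both kinds of library. A two-sided exact permutation test of 3 against 3 libraries cannot go below 0.10, and no test of these ratios was run.

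**Figure D2:**
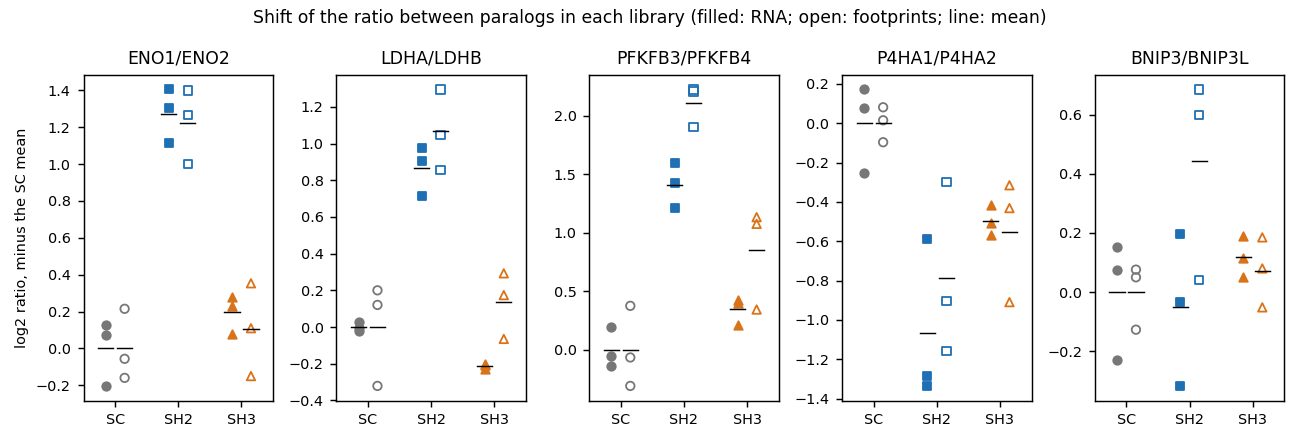
Shift of the log2 ratio of counts between 5 pairs of paralogs in each library, relative to the SC mean of the same library kind. Filled points are RNA and open points footprints, with SC in grey circles, SH2 in blue squares and SH3 in orange triangles, and short lines give the mean. ENO1/ENO2, LDHA/LDHB and PFKFB3/PFKFB4 lie above SC in SH2 in both measures, and P4HA1/P4HA2 below it under both hairpins.

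Of the 3 genes of oxygen sensing, HIF1A was called higher in SH2 and the EGLN genes were not called. HIF1A, the oxygen-regulated subunit of HIF, had 402, 487 and 413 CPM of RNA in SC, 511, 773 and 497 CPM in SH2 and 475, 510.0 and 488 CPM in SH3. The SH2 libraries lay above SC, replicate 2 far above, and SH3 overlapped SC. The SH2 change of 0.45 (SE 0.15, edgeR adjusted p 0.0155) went to 0.21 without SH2 replicate 2 (edgeR adjusted p 0.0944), and its call was also lost without SC replicate 3 (0.42, adjusted p 0.0527). HIF1A footprints were 640.0, 540.1 and 585 CPM in SC, 1011, 684 and 757 CPM in SH2 and 639.9, 654 and 594 CPM in SH3. Here SH2 replicate 1 was the highest, and without it the change of 0.47 (SE 0.15, edgeR adjusted p 0.0157) was 0.30 (edgeR adjusted p 0.0973). HIF activity is set largely by the protein's stability, which these libraries do not measure. EGLN1, the main oxygen-sensing prolyl hydroxylase, had RNA of 25.4 to 36.3 CPM in SC, 28.1 to 38.4 CPM in SH2 and 27.3 to 30.6 CPM in SH3. EGLN3, a hydroxylase that HIF itself induces, had 1.76 to 2.48 CPM, 1.65 to 3.65 CPM and 1.64 to 2.41 CPM. For both EGLN genes the hairpin libraries overlapped SC in RNA and in footprints. EGLN1 was called lower in SH3 without SC replicate 1 in RNA or SC replicate 2 in footprints, and EGLN3 higher in SH2 RNA without SH2 replicate 1 (edgeR adjusted p 0.0336, 0.0386 and 0.0472).

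Of the 12 other hypoxia-induced genes, 4 rose and 3 fell in SH2 RNA, and 1 rose and 7 fell in SH3, CA9 included. The SH2 shares, 33.3% and 25%, lay near those of all genes, 31.1% and 30.4%. In SH3 the shares were 8.33% and 58.3%, beside 27.8% and 25.2% of all genes. The median log2 change was 0.07 in SH2 and -0.52 in SH3. Higher in SH2 than in SH3 were 8 of the 12, CA9 among them, and 0 were lower (18.9% and 20.4% of all genes). CA9, the membrane carbonic anhydrase that is among the most oxygen-dependent genes known, was near the limit of detection. Its RNA counts were 17, 32 and 50 in SC, 5, 10 and 10 in SH2 and 0, 2 and 0 in SH3. The SH3 libraries were all at or under the floor of 3 counts a library, so CA9 there was at least 11.0-fold lower than in SC and at least 2.57-fold lower than in SH2, bounds that cover counting error only. The SH2 counts lay below all SC counts. No test of CA9 is given, since it entered the fit only through the SC libraries. Footprints of CA9 were at most 13 counts a library and were not tested.

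ANKRD37, a small ankyrin-repeat protein whose promoter above holds 3 cores, followed CA9 in the order of the groups. Its RNA was 8.61, 7.66 and 8.34 CPM in SC, 7.10, 5.49 and 5.48 CPM in SH2 and 3.96, 3.31 and 3.68 CPM in SH3, with no overlap between any of the groups. The fall in SH3 was 1.17 (SE 0.16, edgeR adjusted p 4.96e-05). In SH2 it was 0.45 (SE 0.16, edgeR adjusted p 0.022), and that call was lost without SC replicate 3, SH2 replicate 2 or SH2 replicate 3 and with plain library totals (edgeR adjusted p 0.0612 to 0.0643). HILPDA, a lipid droplet protein, had 2.78, 2.51 and 3.27 CPM in SC, 2.31, 1.47 and 1.60 CPM in SH2 and 2.52, 2.98 and 2.61 CPM in SH3. Its fall in SH2, 0.67 (SE 0.22, edgeR adjusted p 0.018), was likewise lost without SC replicate 3, SH2 replicate 2 or SH2 replicate 3 (edgeR adjusted p 0.0558 to 0.0823).

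BNIP3, a mitophagy receptor, and ADM, the vasodilator peptide adrenomedullin, fell in SH3 RNA by 0.62 and 0.66, and differed from SC in SH2 by 0.04 and -0.02 without a call. Their footprints fell in SH3 too, BNIP3 by 0.96 and ADM by 0.57, and the ADM call (edgeR adjusted p 0.0497) was lost with DESeq2, with other scalings, in the fit of only the groups compared and without any 1 of SC replicates 2 and 3 and the SH3 replicates (adjusted p up to 0.247). P4HA1 fell in SH3 by 0.59 (SE 0.14, edgeR adjusted p 0.00321). NDRG1, a stress-response gene induced by hypoxia, and P4HA2 rose in SH2 by 0.41 and 0.74 and were at -0.01 and -0.12 in SH3, not called. ANGPTL4, a secreted inhibitor of lipoprotein lipase, spread widely within SC, with RNA at 31.3, 11.5 and 14.6 CPM and footprints at 14.6, 48.4 and 28 CPM. With the settings used throughout, no ANGPTL4 comparison with SC passed the test, and the outcome depended on SC replicates 1 and 2 and on the settings. With all libraries kept, SH2 RNA was called with no filter, plain library totals and the replicate block (edgeR adjusted p 0.0354, 0.0429 and 0.00361). Without SC replicate 1 the RNA change was 1.08 in SH2 and 0.78 in SH3 (edgeR adjusted p 0.00013 and 0.0024), and without SC replicate 2 the SH2 footprint change was 0.63 (adjusted p 0.0397).

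DDIT4 (REDD1), a stress-induced inhibitor of mTORC1 signalling, was the 1 member called in opposite directions. Its RNA was 79.0, 112 and 115 CPM in SC, 155, 149 and 174 CPM in SH2 and 74.3, 70.2 and 79.3 CPM in SH3. SH2 lay above all other libraries, and SH3 overlapped SC through SC replicate 1. DDIT4 rose by 0.65 in SH2 (SE 0.13, edgeR adjusted p 0.000602) and fell by 0.45 in SH3 (SE 0.13, adjusted p 0.00933). SH2 exceeded SH3 by 1.09 (SE 0.13, edgeR adjusted p 2.4e-05). Without SC replicate 3 the SH3 change was -0.36 and no longer called (edgeR adjusted p 0.053). In footprints DDIT4 had 93.0, 42.5 and 82.7 CPM in SC, 71.5, 60.6 and 87.1 CPM in SH2 and 33.4, 39.0 and 48.7 CPM in SH3. In SH2 the footprints overlapped SC (-0.03, SE 0.23, edgeR adjusted p 0.941), while the SH3 footprints were lower by 0.86 (SE 0.24, adjusted p 0.0113). That SH3 call was lost without SC replicate 3 or SH3 replicate 1 or 2 (edgeR adjusted p 0.0515 to 0.0536). The change in the ratio of footprints to RNA in SH2 was -0.70 and did not pass its test (SE 0.28, edgeR adjusted p 0.187), though without SC replicate 2 it was -1.02 (adjusted p 0.0169).

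KDM3A, a histone H3 lysine demethylase induced by hypoxia, rose furthest of the members in RNA and in footprints, under both hairpins. Its RNA was 62.4, 78.3 and 70.6 CPM in SC, 145, 158 and 127 CPM in SH2 and 171, 164 and 173 CPM in SH3. Footprints rose further, from 48.9, 43.0 and 41.5 CPM in SC to 171, 183 and 132 CPM in SH2 and 189, 178 and 169 CPM in SH3. All hairpin libraries lay above all SC libraries in both measures. The RNA rises were 1.03 (SE 0.11, edgeR adjusted p 2.36e-06) and 1.27 (SE 0.11, adjusted p 9.59e-07). The footprint rises were 1.86 (SE 0.15, edgeR adjusted p 4.05e-07) and 2.00 (SE 0.15, adjusted p 5.28e-07), that is 3.64-fold and 4.00-fold. Neither promoter window of KDM3A held ACGTG.

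Translational efficiency (footprints per RNA) was tested as the difference between the footprint change and the RNA change in 1 fit of all 18 libraries, and 3 members passed in SH2. KDM3A was higher by 0.83 (SE 0.18, edgeR adjusted p 0.0149). PFKFB4 was lower by 0.75 (SE 0.21, edgeR adjusted p 0.0463) and BNIP3L, a mitophagy receptor related to BNIP3, by 0.64 (SE 0.17, adjusted p 0.0402). In all, 1 member was higher and 2 lower of the 40, where 3.90% of the 12531 genes tested were called, and 4 members had an unadjusted p under 0.05. In SH3, 0 of the 40 were called by edgeR (0.686% of all genes), 6 had an unadjusted p under 0.05, and DESeq2's Wald test called 2. Between SH2 and SH3, 0 were called (0.0160% of all genes), 5 had an unadjusted p under 0.05, and DESeq2 called 0. The 40 include SLC16A1, ALDOA, CA9 and HILPDA, which had too few footprints for the footprint test. In simulated data the ratio test recovered 54% of log2 changes of 1. A member without a call can thus still have changed. In SH3 the ratio of KDM3A was higher by 0.74 (SE 0.18, edgeR adjusted p 0.063), that of PFKFB4 lower by 0.64 (SE 0.20, adjusted p 0.155) and that of BNIP3L lower by 0.28 (SE 0.18, adjusted p 0.562). The 3 SH2 calls were fragile. KDM3A lost its call without SC replicate 3 (edgeR adjusted p 0.0834), without SH2 replicate 1 (0.059) and in the fit of only the groups compared (0.0528). PFKFB4 lost its call without any 1 of the SC or SH2 replicates (edgeR adjusted p 0.0702 to 0.223, with the change at -0.49 without SH2 replicate 2). BNIP3L lost its call without SC replicate 2 or 3 or SH2 replicate 1 or 3 (edgeR adjusted p 0.0944 to 0.154).

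The levels behind these ratios differed by gene. PFKFB4 footprints fell from 33.3, 35.8 and 29.8 CPM in SC to 13.3, 9.79 and 13.9 CPM in SH2 and 16.4, 17.1 and 20.0 CPM in SH3. These were falls of 1.42 (SE 0.20, edgeR adjusted p 3.51e-05) and 0.87 (SE 0.19, adjusted p 0.00261), beside RNA changes of -0.70 and -0.21, the latter not called. BNIP3L RNA was 115, 101 and 107 CPM in SC, 127, 112 and 106 CPM in SH2 and 64.9, 65.4 and 63.6 CPM in SH3. BNIP3L footprints were 240.1, 276 and 268 CPM in SC, 188, 200.0 and 148 CPM in SH2 and 155, 113 and 120.2 CPM in SH3. In SH2 its footprints thus lay below SC (-0.54, SE 0.15, edgeR adjusted p 0.00862) while its RNA overlapped SC (0.09, SE 0.09, adjusted p 0.412), and in SH3 both fell, by 0.74 in RNA and 1.02 in footprints. The SH2 footprint call of BNIP3L was lost without SH2 replicate 3 (-0.42, edgeR adjusted p 0.0599).

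**Figure D3:**
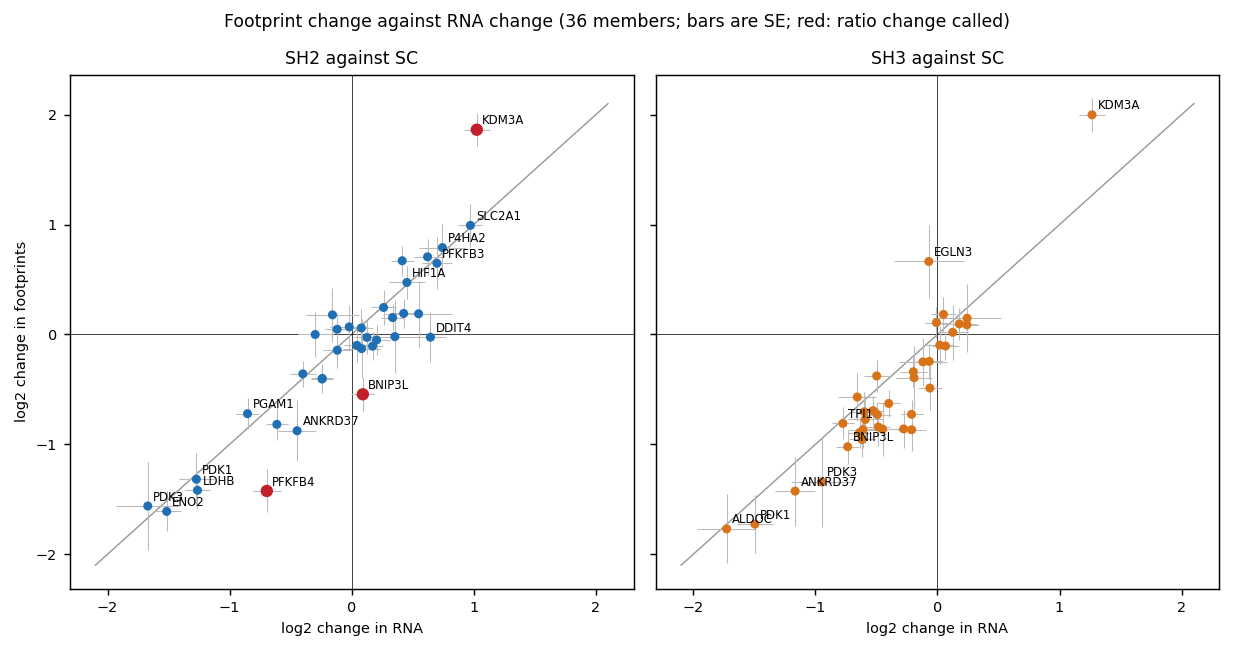
Log2 change in footprints against log2 change in RNA for the 36 members tested in both, SH2 against SC on the left and SH3 against SC on the right, with SE bars and the line of equal change. Red points are the 3 members whose ratio change was called. In SH2, KDM3A lies above the line and PFKFB4 and BNIP3L below it, and in SH3 most points lie in the lower left.

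**Figure D4:**
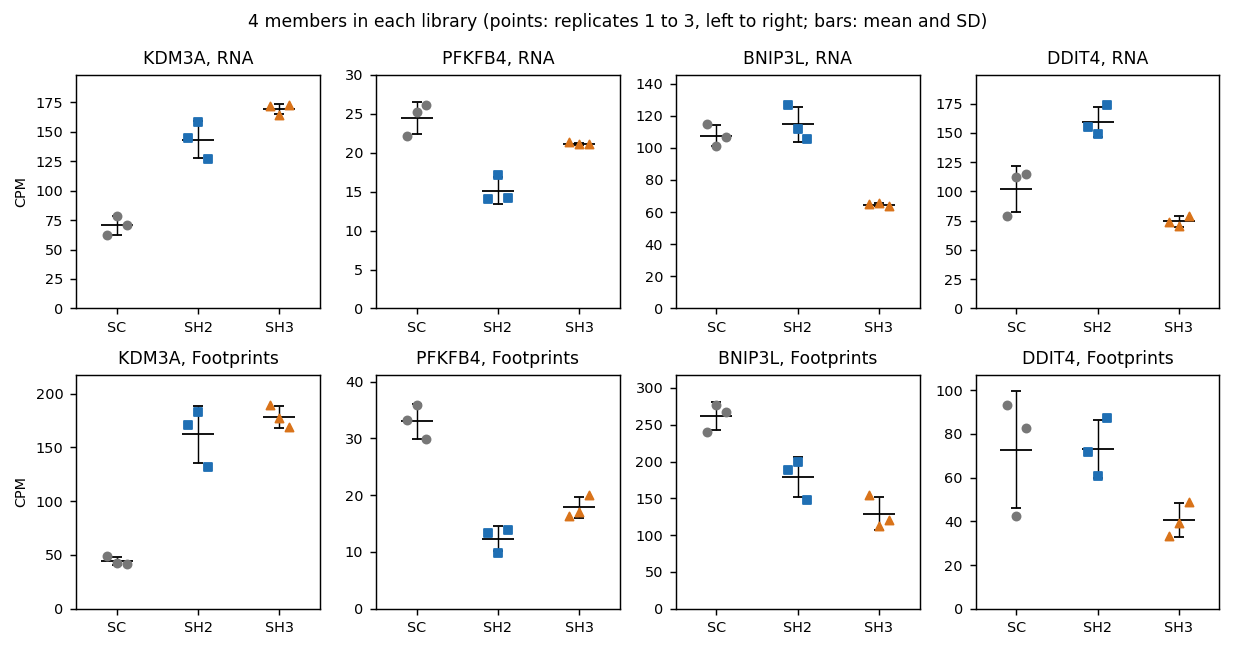
CPM of KDM3A, PFKFB4, BNIP3L and DDIT4 in each library, RNA above and footprints below, with the mean and SD of 3 libraries. KDM3A rises under both hairpins, further in footprints. In SH2, BNIP3L footprints lie below SC and its RNA overlaps SC, while DDIT4 RNA lies above SC and its footprints overlap SC, a ratio change that did not pass its test for DDIT4.

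The members' footprints per RNA in unperturbed SC cells were compared with all genes. Over 11664 genes the median log2 ratio of footprint CPM to RNA CPM was -0.25. Of the 39 members with counts in all SC libraries, 34 lay above that median, with a median of 0.46, and so did 17 of 17 glycolytic enzymes, with a median of 0.48. For ALDOA, with 7, 1 and 2 footprints, the replicates spread from -1.15 to 1.34, and without it the enzymes numbered 16 of 16 with a median of 0.53. PKM was the highest, at 1.44 ± 0.058 (SD, n = 3), higher than 97.7% of all genes. BNIP3L (1.28 ± 0.19, SD, n = 3), SLC2A1 (1.18 ± 0.42) and LDHA (1.07 ± 0.069) followed, leaving aside SLC16A1 and EGLN3 with at most 33 footprints in a library. Members below the all-gene median were HILPDA, EGLN1, KDM3A, PFKFB3 and DDIT4. KDM3A thus had a low SC ratio, at -0.66 ± 0.27 (SD, n = 3), and BNIP3L a high one. The same SC libraries enter the ratio changes by which both genes were picked, so level and change are not independent. The counted region of each transcript is not given in the sources used here, and reads in untranslated parts would lower a gene's ratio, which was not tested. The ratios pair IN and RPF libraries of the same number, and this pairing sets the SD and not the mean.

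**Figure D5:**
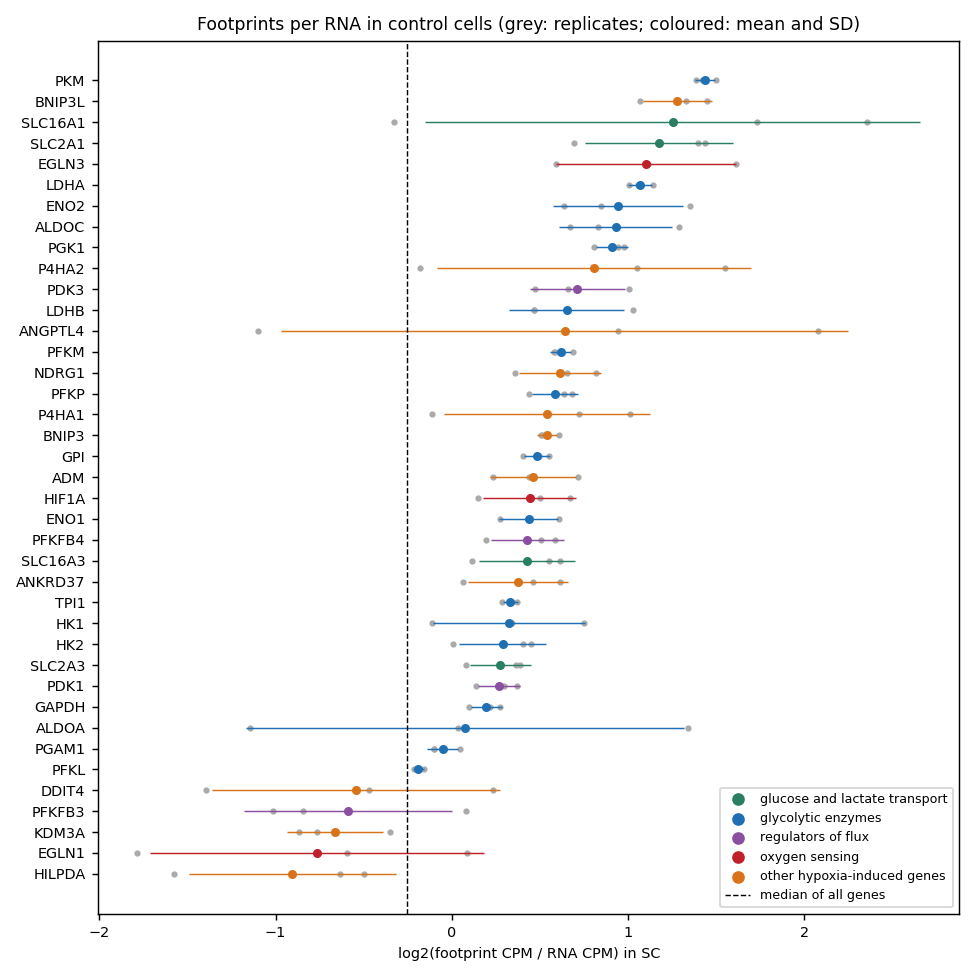
Log2 ratio of footprint CPM to RNA CPM in the SC libraries for 39 members, ordered by mean. Grey points are replicates 1 to 3, coloured points and bars the mean and SD, coloured by role, and the dashed line the median of 11664 genes at -0.25. All glycolytic enzymes lie to the right of the line, and the wide bars of SLC16A1, ALDOA and ANGPTL4 go with few counts or with large spread between the SC libraries.

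Returning to the promoters, the members called lower in SH3 RNA held ACGTG in 14 of the 19 with a promoter entry. The 6 stretches printed above are all from these 14 and do not stand for the members as a whole. Of those not called in SH3 the core was in 7 of 14, and of those called higher in 1 of 2, PFKM. In SH2 the core was in 8 of 12 members called lower, 10 of 14 not called and 4 of 9 called higher. The share among all genes with each call was not computed, so these counts cannot tie the core to the calls. CA9 is counted among the 14 of SH3 and the 8 of SH2. Its fall was a condition of its being tested, so it is no support in either count. PFKL, PGAM1, ENO1, LDHB and ADM fell in SH3 with no core in the window searched. LDHB, ENO1 and PGAM1 fell under both hairpins.

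Genes next to these pathways were counted from a list of 69, of which 68 were in the table and 67 were tested in RNA. SH2 had 16 of these higher and 23 lower (23.9% and 34.3%), and SH3 had 19 and 26 (28.4% and 38.8%), beside the shares of all genes given above, 31.1% and 30.4%, then 27.8% and 25.2%. In footprints 13 of 65 were higher and 19 lower for SH2 (20.0% and 29.2%, beside 21.0% and 23.2% of all genes). For SH3 the footprint numbers were 9 and 25 (13.8% and 38.5%, beside 16.9% and 19.0%). Called in the same direction in RNA under both hairpins were 29. Of these, 12 rose and 17 fell (17.9% and 25.4%, beside 19.6% and 18.2% of all genes). The largest mean falls were those of FBP1, the gluconeogenic fructose bisphosphatase (log2 changes -2.32 and -1.60), ARNT2, a partner of HIF-alpha subunits (-2.28 and -1.25), and LOX, a collagen cross-linking oxidase (-0.97 and -2.52). The largest mean rises were those of STC2, a secreted glycoprotein (2.70 and 1.12), LOXL2, a relative of LOX (1.55 and 1.08), and PLIN2, a lipid droplet coat protein (1.25 and 1.22). STC2 RNA was low, with 0.378 ± 0.097 CPM (SD, n = 3) for SC libraries, 2.48 ± 0.62 CPM for SH2 and 0.827 ± 0.085 CPM for SH3. The HIF machinery itself had 12 genes tested, with 4 up and 5 down for SH2, then 4 up and 3 down for SH3. Of 10 genes of pyruvate's fate, 1 was higher and 2 lower in SH2, and 3 each way in SH3.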

How the data were processed

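Cytoplasmic RNA and ribosome footprints of MDA-MB-231 cells were measured in 18 libraries, 3 per treatment and kind. The authors deposited raw read counts per gene symbol. Per the file headers the table also holds DESeq2-normalized signal, and the authors' log2 fold changes and p-values against SC. Per the submitters' processing notes Bowtie 1.2.2 and DESeq2 were used. The genome build, the annotation and the counting of reads that match several places are not given in the sources used here.

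The deposited counts were tested with edgeR 4.0.16 (R 4.3.3) after filterByExpr, with TMM scaling and the quasi-likelihood test, 2-sided, in 1 fit of the 9 RNA libraries, 1 of the 9 footprint libraries, and 1 of all 18 for translational efficiency (an interaction contrast). P-values were adjusted by Benjamini-Hochberg over all genes tested (12710, 10345 and 12531), and 0.05 was the threshold. SE is the absolute log2 change over the square root of F. The biological coefficient of variation was 11.6% in RNA and 15.1% in footprints. Counts of 3 or fewer in every library of a group were taken as the floor. Replicates of a group differed by a chi-square of at least 3.55 per degree of freedom, so none was a duplicate. The fits were tested on simulated data.

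Genes with values in the text are the 4 members per role with the largest mean absolute RNA change, HIF1A, members called in translational efficiency and members called in opposite directions. Of the adjacent genes, the 3 highest and 3 lowest among those called alike by both hairpins are named. Other members carry single values to show what a count holds, and PGK1, HILPDA, ANGPTL4 and P4HA2 were given by library after their values were seen. The members and lists were chosen with earlier results of these data known. Alternatives were DESeq2 1.42.0 (Wald test), DESeq2 size factors, plain totals, no filter, only the groups compared, replicate blocks and leaving out each replicate. Promoters are from RefSeq (GRCh38.p14).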

Additional observations from a re-analysis of the deposited data

Results flagged for a closer look

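DDIT4 RNA was called in opposite directions against SC by the 2 hairpins, higher in SH2 and lower in SH3. SH2 exceeded SH3 by 1.09 on the log2 scale (SE 0.13, edgeR adjusted p 2.4e-05). The 3 SH2 libraries (155, 149 and 174 CPM) all lay above the 3 SH3 libraries (74.3, 70.2 and 79.3 CPM). DDIT4 was picked for its opposite calls, so the difference between the hairpins follows from them and is no separate support. The SH3 libraries overlapped SC, and the SH3 call was lost without SC replicate 3 (edgeR adjusted p 0.053).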

How the results depend on the processing

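No member's called change reversed in any alternative. Of 69 called RNA values of members 57 kept their call throughout, of 57 footprint values 39 did, and of 3 translational efficiency values none did. Members higher in SH3 RNA numbered 1, in place of 2, with DESeq2's Wald test, DESeq2 size factors, no filter or only the groups compared, and 1 to 2 when leaving out a replicate. For SH2 translational efficiency, members called were 0 (higher 0, lower 0) with only the groups compared, 1 (lower 0) with the replicate block by lysate and lower 1 with no filter. Leaving out a replicate gave 0 to 3 (higher 0 to 1, lower 0 to 2). All genes called numbered 828 with DESeq2, 755 with the replicate block, 184 with only the groups compared, 191 with the lysate block and 110 to 555 without a replicate. For SH3, members called were 2 with DESeq2 (1 higher, 1 lower), 1 with no filter (higher), 1 with the replicate block (higher) and 0 to 1 (higher 0 to 1) without a replicate, and all genes called 289, 150 (replicate block), 46 (only the groups compared), 23 (lysate block) and 10 to 244. Between SH2 and SH3 the ratio was called for 160 genes (DESeq2), 35 (no filter), 75 (replicate block), 36 (only the groups compared), 0 (lysate block) and 0 to 1 without a replicate. For footprints between the hairpins, leaving out a replicate gave 10 to 14 members (higher 9 to 13, lower 1 to 2) and 1541 to 2104 genes. The members' median SC ratio minus that of all genes was 0.72, and 0.68 to 0.77 without a replicate.

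The labels do not say that numbers pair libraries. Same-numbered libraries across treatments correlated in their deviations from the group means between -0.16 and 0.49 in RNA (median 0.36) and between -0.12 and 0.32 in footprints (median 0.25). A library correlated best with its own number in 14 of 18 cases in RNA and 10 of 18 in footprints. In RNA most libraries thus went with their own number, though some pairs correlated below 0. The fits described above used no replicate block, so their p-values ignore any effect that same-numbered libraries share. With the replicate block 0 called members lost their call and 11 more values of members passed, among them ANGPTL4 RNA in SH2 (0.64, edgeR adjusted p 0.00361), P4HA1 RNA in SH2 (-0.30, adjusted p 0.0243), SLC2A1 footprints in SH3 (-0.46, adjusted p 0.00807) and the KDM3A ratio in SH3 (0.73, adjusted p 0.0289). That ratio also passed with DESeq2 (adjusted p 0.00752). SLC16A1, ALDOA, CA9 and HILPDA had too few footprints for the footprint test, and the cause was not tested.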

Other observations

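The replicate numbers of the 2 library kinds were compared in the SC and hairpin groups, since the protocols describe input RNA and footprints as parts of 1 lysate. Deviations from the group mean were correlated across 10335 genes, which are not independent replicates. In SC, IN replicate 1 correlated with RPF replicate 2 (0.58) and IN replicate 2 with RPF replicate 1 (0.47), while libraries of the same number gave -0.50 and -0.47. In SH2 the crossed values were 0.57 and 0.50, and those of the same number -0.31 and -0.31. Replicate 3 in SC and SH2, and all 3 numbers in SH3, correlated best with their own number, which makes 5 of 9 RNA libraries in all. P4HA2 in SC had RNA at 78.1, 46.7 and 50.5 CPM and footprints at 69.0, 136 and 105 CPM, and HIF1A was highest in SH2 replicate 2 in RNA and in SH2 replicate 1 in footprints. Nothing in the labels says that numbers are crossed. The tests of RNA, footprints and their ratio do not pair libraries by number, apart from the blocked alternatives.

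In the authors' deposited table the columns for RD, a measure it does not define, hold the same values for SH2 and SH3 in all 17017 genes. They differ by a median of 0.0047 from the change in the ratio of footprints to RNA computed here for SH3, and by 0.26 from that for SH2. The members that pass an adjusted p of 0.05 there are GPI (log2 change -0.50), PFKFB4 (-0.63), BNIP3L (-0.28) and KDM3A (0.74). For RNA and footprints against SC, the authors' deposited table calls the same members as edgeR did here in 40 of 40 cases for SH2 RNA, 38 of 40 for SH3 RNA, and 35 of 36 for each hairpin in footprints.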
